A study of Mus musculus with 16 samples.

Results

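Neurons without Gad1 or Gad2 were cortical cells that carried neuronal transcripts, but no detected transcript of either glutamate decarboxylase, the enzymes that make GABA. A barcode was taken as such a cell when it had 200 to 7000 detected genes, at least 3 unique molecular identifiers (UMIs, each standing for 1 captured transcript) summed over Syt1, Snap25, Grin2b, Grin2a, Scn2a, Chgb and Erc2, at most 1 UMI summed over P2ry12, Cx3cr1, Aqp4, Gja1, Mag, Mog, Cldn5, Flt1 and Pdgfra, and no UMI of Gad1 or Gad2. The rule kept 676 of 24578 barcodes from 14 libraries. Another 144 barcodes met the same rule but had at least 1 UMI of Gad1 or Gad2, and are called Gad-positive neurons here.

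The cells came from the neocortex of 17-month-old mice. Heterozygous THY-Tau22 mice carry a mutant human tau transgene driven by the neuronal Thy1.2 promoter, and were compared with wild-type (WT) littermates of each sex. The whole neocortex of 1 hemisphere was dissociated enzymatically, and single cells were captured in droplets and sequenced from the 3′ end of their transcripts (Drop-seq). The comparisons used 3 WT and 3 THY-Tau22 mice among males, and 3 WT and 5 THY-Tau22 mice among females, each mouse being 1 library.

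Cortical neurons fall into glutamatergic projection neurons, which load glutamate into synaptic vesicles with Slc17a7 or Slc17a6, and GABAergic neurons, which make GABA with Gad1 and Gad2 and load it with Slc32a1. Projection neurons of the upper layers connect cortical areas, while those of the deep layers also project out of the cortex. Neurons are large and have long processes, and few of them survive the dissociation of old brain tissue whole. In sparse droplet data a gene with no UMI can still have been expressed, so the absence of Gad1 and Gad2 does not by itself name a cell.

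The libraries held 1041675 to 2237505 UMIs each. Of 16 libraries labelled, a pair with opposite genotypes (WT male replicate 3 with THY-Tau22 male replicate 4) had 2952 of 3000 barcodes in common, whereas other pairs had 3 to 12. Both were left out because their genotype could not be told, and the 14 libraries used had 0 member barcodes in common. One animal number stands in 2 titles, those of THY-Tau22 female replicate 1 and WT male replicate 1, whose barcodes did not overlap beyond that background. No label states whether the 2 libraries titled MB22 (THY-Tau22 female replicate 5 and WT female replicate 3) were prepared apart from those titled MB21.

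The rule drew its lower edge through a continuum. The 122 member cells with exactly 3 neuron-gene UMIs had 20604 CPM (UMIs of a gene per 1000000 UMIs of the summed cells) of Meg3, a long non-coding RNA abundant in neurons, against 14110 CPM in the 165 cells just outside with 2 UMIs. Meg3 did not rise steadily with the neuron-gene sum. It was 23938.5 CPM in the 190 members with 6 to 9 such UMIs and 14077 CPM in those with at least 10. Cst3, a secreted protease inhibitor abundant in glia, stood at 818 CPM just inside and 1671 CPM just outside, and at 353 CPM in the 222 members with at least 10 neuron-gene UMIs. On the other edge, the 570 members with no glial or vascular UMI had 391 CPM of Cst3, the 106 members with 1 such UMI had 598 CPM, and the 48 cells just outside with 2 had 1252 CPM. These values describe the rule and were not tested.

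The member cells held 746337 UMIs in all, with a median of 829 UMIs and 437.5 genes per cell. Gad-positive neurons had a median of 691 UMIs and 409.5 genes, and 4846 microglia chosen by P2ry12 and Cx3cr1 had 579 UMIs and 363 genes. These microglia had at least 3 UMIs summed over P2ry12 and Cx3cr1, and at most 1 UMI of the other glial or vascular rule genes. They also had at most 1 UMI of the neuron rule genes and none of Gad1 or Gad2, so their low neuronal values rest in part on that choice. Neuronal transcripts beyond the rule were abundant: Meg3 reached 17995 CPM in members against 97.4 CPM in microglia. Of the rule genes, the vesicle calcium sensor Syt1 was found in 82.5% of members, the fusion protein Snap25 in 69.5%, the glutamate receptor subunit Grin2b in 54.3% and the sodium channel Scn2a in 47.9%, by construction.

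Most member cells carried a transcript linked to excitatory neurons. At least 1 UMI of a 12-gene excitatory list was present in 82.0% of members, 56.9% of Gad-positive neurons and 3.69% of microglia. The last comes from cells already chosen for few neuron-gene UMIs, and whether it is free RNA in the droplets was not tested. After each cell was thinned to 500 UMIs, which removes the difference in depth and leaves 561 members, 116 Gad-positive neurons and 3032 microglia, the shares were 71.1%, 44.8% and 2.34%. A stricter list of 9 cortical excitatory genes, chosen after seeing the data because the wider one was also frequent in Gad-positive neurons, was found in 45.0%, 6.94% and 0.557% of cells, or 29.6%, 3.45% and 0.363% after thinning.

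The defining glutamatergic genes were present but sparse. The vesicular glutamate transporter Slc17a7 stood at 199.6 CPM and was seen in 16.4% of members, against 0.69% of Gad-positive neurons and 0.12% of microglia. Neurod6, a transcription factor of projection neurons, reached 223.8 CPM in 12.7% of members, and no UMI among the 133826 of Gad-positive neurons, a count of 0 that allows up to 22.4 CPM. The synaptic vesicle protein Sv2b (195.6 CPM), the transcription factors Neurod2 (105.9 CPM) and Tbr1 (77.7 CPM), and the transporter Slc17a6 (65.7 CPM) were lower. Levels here are per UMI from 3′ ends, so they do not scale with transcript length.

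Not all members looked glutamatergic. Only 227 of them (33.6%) had a UMI of the strict excitatory list without one of the striatal or inhibitory lists, 106 (15.7%) had striatal or inhibitory genes alone, 77 (11.4%) had both, and 266 (39.3%) had neither. The cells with both were the deepest, with a median of 1779 UMIs, and those with neither were shallow, with a median of 675.5 UMIs. The striatal list (dopamine receptors, Penk, Pde10a and other genes of spiny projection neurons) was detected in 21.0% of members, 36.8% of Gad-positive neurons and 0.681% of microglia. Part of the striatal or inhibitory signal lay in cells with no Gad1 or Gad2 UMI, and at this depth a Gad transcript that went uncaptured cannot be told from one that was absent.

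Inhibitory genes other than Gad1 and Gad2 were scarce. The 14-gene list was found in 9.02% of members, 64.6% of Gad-positive neurons and 1.53% of microglia. The GABA transporter of synaptic vesicles, Slc32a1, had 10.7 CPM in members and 291 CPM in Gad-positive neurons. Of the interneuron peptides, Sst had 1 UMI and Vip 5 UMIs over all members, Npy stood at 10.7 CPM, and Pvalb, which marks fast-spiking interneurons, was not detected. In the Gad-positive neurons of the 6 mice compared below, Sst and Pvalb were also listed at 0, so these genes do not set the classes apart. Vip averaged 21.2 CPM and Npy 123 CPM there.

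Genes linked to both cortical depths were detected, but those of deep layers were more frequent in Gad-positive neurons. Genes of upper layers were found in 38.0% of members, 20.1% of Gad-positive neurons and 9.97% of microglia, and included Rorb at 96.5 CPM and Cux2 at 69.7 CPM. Genes of deep layers were found in 29.0%, 50.7% and 11.7% of the same cells. The deep-layer list is no exclusive marker, because Bcl11b, which is also known from striatal and inhibitory neurons, had 159 CPM in members and 613 CPM in Gad-positive neurons, and Tle4 was seen in 10.6% of microglia. Fezf2, which specifies corticospinal neurons, had 10.7 CPM in members. Of deep-layer genes, Tle4, Foxp2 and Syt6 were lower in members in 6 of 6 mice compared below, whereas Fezf2 was higher in 4. Genes of immature neurons were seen in 15.1% of members and 17.4% of Gad-positive neurons, and those of Cajal-Retzius cells in 6.36% and 9.72%.

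**Figure D1:**
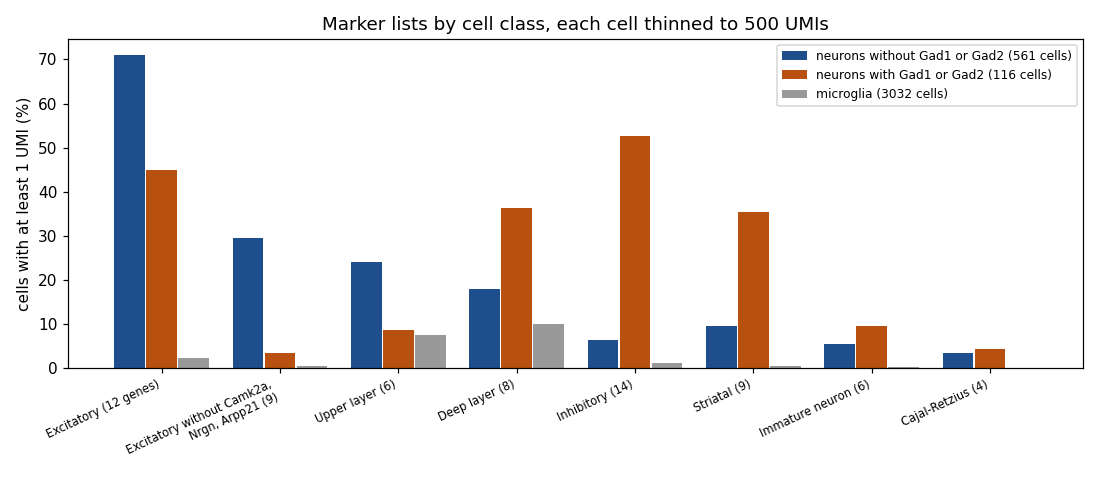
Bars give the percentage of cells with at least 1 UMI of each marker list (y axis, from 0) after thinning to 500 UMIs, in members, Gad-positive neurons and microglia. Excitatory genes were in 71.1% of members and 44.8% of Gad-positive neurons, while inhibitory genes were in 6.42% and 52.6%.

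Transcripts linked to other cell types were also detected in members, at the depths given above. The astrocyte list includes Slc1a2, and how much of it came from the members themselves was not tested. Oligodendrocyte genes were detected in 51.2% of members and 43.1% of microglia, astrocyte genes in 61.1% and 43.4%, endothelial genes in 17.3% and 16.4%, and mural genes in 4.88% and 3.51%. Choroid plexus genes were in 10.5% of members and 5.16% of microglia, blood genes in 0.592% and 0.805%, and microglial genes in 18.2% of members. After thinning to 500 UMIs the order turned for oligodendrocyte genes (34.2% of members and 36.1% of microglia), endothelial genes (7.84% and 13.0%), and mural genes (2.85% and 2.90%), and the astrocyte shares were 42.2% and 39.8%. The blood shares also turned, to 0.535% and 0.462%.

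Members were then compared with Gad-positive neurons of the same animals, to ask which genes outside the rule set them apart. Counts were summed per mouse and class in the 6 mice with at least 10 cells of both (2 WT males, 1 WT female and 3 THY-Tau22 females). Of 386 genes with enough counts, 27 (6.99%) were called, meaning an adjusted p under 0.05 and a log2 fold change of 0.5 or more in either direction, in edgeR's quasi-likelihood test, with the mouse as a block. Of these, 16 genes (4.15%) were higher in members and 11 (2.85%) lower. With a filter of at least 10 UMIs in all in place of edgeR's own, 185 genes passed, 168 higher and 17 lower, and the median log2 fold change of the 386 genes moved up by 0.54. That filter changes both the genes tested and the genes used for scaling, and their parts in the new split were not tested.

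Olfm1 and Ptprd led the genes higher in members. Olfm1, a secreted glycoprotein of neurons, measured 752, 1239, 1446, 1616, 681 and 549 CPM in members of WT male replicates 1 and 2, THY-Tau22 female replicates 2, 3 and 5, and WT female replicate 3, and 127, 197, 206, 71.3, 93.3 and 244 CPM in the Gad-positive neurons of the same mice. Every mouse had more in its members, the lowest member value lay above the highest Gad-positive value, and the log2 fold change was 2.71 ± 0.34 (SE, n = 6 mice, edgeR adjusted p = 1.2e-06). Ptprd, a presynaptic receptor phosphatase, measured 831, 620, 679, 827, 710 and 1283 CPM in members and 297, 98.3, 68.7, 71.3, 187 and 122 CPM in Gad-positive neurons of the mice in the same order. It was again higher in members of 6 of 6 mice without overlap, by 2.52 ± 0.35 on the log2 scale (edgeR adjusted p = 3.83e-06).

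Other genes higher in members had roles in growth factor signalling, at the synapse and in calcium handling. Ptn, a secreted growth factor, was higher by 1.76 ± 0.30 (edgeR adjusted p = 0.00011), with 595 to 964 CPM in members and 143 to 366 CPM in Gad-positive neurons. Camk2a, the alpha subunit of calcium/calmodulin kinase II of excitatory neurons, was higher by 1.49 ± 0.38 (edgeR adjusted p = 0.0118), although THY-Tau22 female replicate 5 went the other way with 457 CPM in members and 606 CPM in Gad-positive neurons. Nrgn, a postsynaptic calmodulin-binding protein, was higher in 5 of 6 mice by 1.21 ± 0.38 (edgeR adjusted p = 0.0487). Dmd (dystrophin), R3hdm1 and the sodium/calcium exchanger Slc24a2 were higher by 1.56 ± 0.33, 1.30 ± 0.27 and 1.26 ± 0.34 (edgeR adjusted p = 0.00163, 0.00133 and 0.0175), Slc24a2 without a call by DESeq2 (adjusted p = 0.0752). Slc1a2, the glutamate transporter for which astrocytes are best known, was also higher, by 1.12 ± 0.28 (edgeR adjusted p = 0.0118). It is itself in the astrocyte list, which was found in 61.1% of members and 43.1% of Gad-positive neurons. Those shares are therefore no separate measure of astrocyte RNA beside Slc1a2, and the part of astrocyte RNA in the difference was not tested.

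Meis2, Pcp4 and Penk led the genes lower in members. Meis2, a homeodomain transcription factor known from striatal and other GABAergic neurons, measured 290, 398, 175, 229, 204 and 288 CPM in members and 637, 1377, 1236, 2066, 933 and 1280 CPM in Gad-positive neurons, in the order given for Olfm1. All members' values lay below all Gad-positive values, and the log2 fold change was −2.11 ± 0.27 (edgeR adjusted p = 1.26e-06). Penk, which encodes the opioid precursor proenkephalin, measured 66.0, 103, 307, 25.4, 175 and 37.2 CPM in members and 1019, 0, 481, 356, 513 and 2133 CPM in Gad-positive neurons. It was lower in members of 5 mice and listed at 0 in the Gad-positive neurons of WT male replicate 2, with a log2 fold change of −2.64 ± 0.44 (edgeR adjusted p = 8.4e-05). Pcp4, a calmodulin regulator, was lower in 6 of 6 mice by −1.72 ± 0.27 (edgeR adjusted p = 4.3e-05), and Scg2, a secretory granule protein, in 5 of 6 mice by −1.16 ± 0.27 (edgeR adjusted p = 0.00561). Penk was not called by DESeq2 (−2.46, adjusted p = 0.0752). Ncl, Apc, Purb, Ndrg4, Serbp1 and Nap1l5 were lower by between −0.79 ± 0.24 (Serbp1, edgeR adjusted p = 0.0424) and −0.95 ± 0.25 (Apc, edgeR adjusted p = 0.0152). None of these 6 genes, nor Scg2, was called with the filter of at least 10 UMIs, where Scg2 was at −0.60 ± 0.27 (edgeR adjusted p = 0.256) and the 6 lay between −0.24 and −0.40 (edgeR adjusted p = 0.481 to 0.736). Purb, Ndrg4, Serbp1 and Nap1l5 were also not called by DESeq2 (adjusted p = 0.0752 to 0.0978), and each lost its call in 4 of 6 fits that left out 1 mouse.

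The transmitter genes themselves had too few counts for that fit, and their values are given by mouse. Slc32a1 measured 0, 29.5, 21.9, 12.7, 9.7 and 0 CPM in members and 297, 295, 275, 428, 187 and 305 CPM in Gad-positive neurons, without overlap. Under the filter of at least 10 UMIs its log2 fold change was −3.90 ± 0.64 (edgeR adjusted p = 1.04e-06), on a scale moved up by 0.54. Neurod6 measured 224, 133, 351, 293, 165 and 65.1 CPM in members and was listed at 0 in the Gad-positive neurons of all 6 mice. Slc17a7 measured 211, 177, 219, 102, 156 and 186 CPM in members, and 0 in the Gad-positive neurons of all mice but THY-Tau22 female replicate 3, where 1 UMI gave 71.3 CPM.

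**Figure D2:**
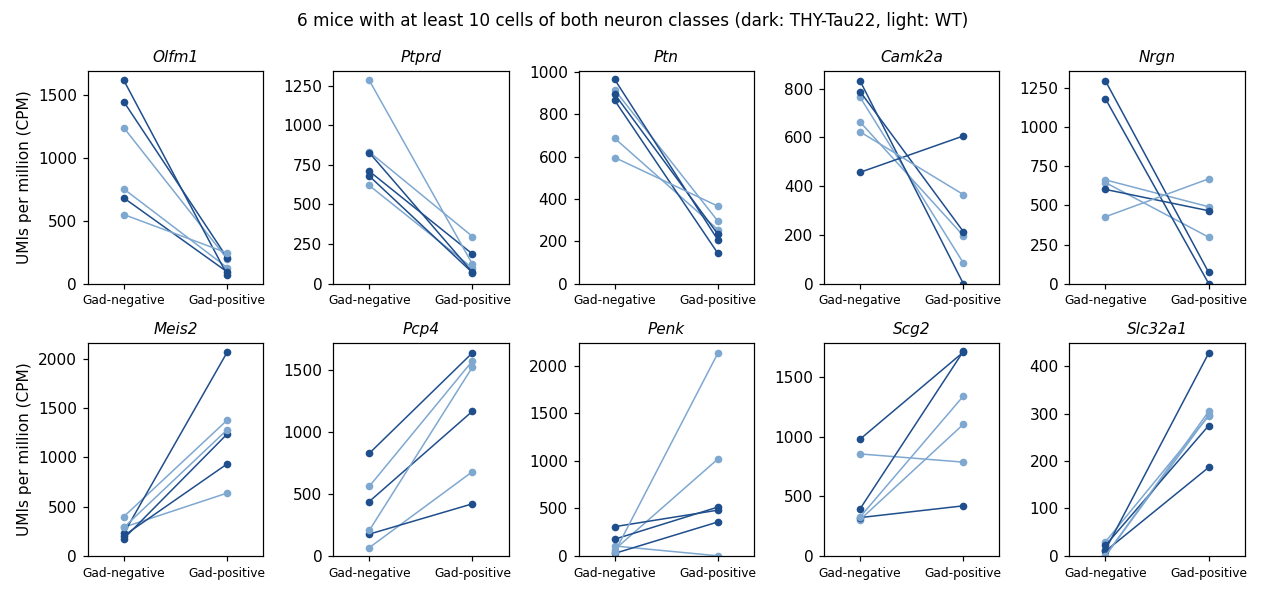
Each panel plots 1 gene in CPM (y axis) in members and Gad-positive neurons (x axis), with a line for each of 6 mice, dark for THY-Tau22 and light for WT. Olfm1, Ptprd and Ptn fall from members to Gad-positive neurons in every mouse, while Meis2, Pcp4 and Slc32a1 climb in every mouse.

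By lists, 2 of 3 tested excitatory genes (Camk2a and Nrgn) were called higher, while Arpp21 was at −0.30 ± 0.22 (edgeR adjusted p = 0.449). The 2 of 7 tested calcium-signalling genes called higher were the same Camk2a and Nrgn, which are in both lists. Of 4 tested secretory granule genes, 2 (Scg2 and Penk) were called lower. Of 6 tested mitochondrial mRNAs, all had positive values with a median log2 fold change of 0.62 and 1 was called (mt-Nd1, a complex I subunit, 0.78 ± 0.22, edgeR adjusted p = 0.0286), though not by DESeq2 (adjusted p = 0.0869). Presynaptic genes stayed near 0, with 8 of 10 positive, a median of 0.21 and 0 called. Over all 386 genes, the median was 0.00 and 50.0% were positive.

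The next question was whether THY-Tau22 mice yielded fewer such neurons. In bulk dissociates fewer cells of a type and a lower capture of that type cannot be told apart. Members made up 2.26%, 3.78% and 2.87% of barcodes in WT male replicates 1, 2 and 4, and 2.15%, 3.45% and 1.72% in THY-Tau22 male replicates 1, 2 and 3. In females they made up 2.51%, 1.07% and 4.51% in WT replicates 1 to 3, and 1.94%, 3.19%, 3.25%, 0.975% and 3.14% in THY-Tau22 replicates 1 to 5. The groups overlapped in both sexes, and the difference did not pass the exact two-sided permutation test (males p = 0.5, females p = 0.804, both sexes with genotypes permuted within sex p = 0.532). In these designs the smallest p is 0.1 in males and 0.0179 in females. WT female replicate 2, with 12 members, and THY-Tau22 female replicate 4, with 14, rested on the fewest cells.

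Mitochondrial mRNA in members separated the male groups without overlap, in a design that cannot reach p under 0.05. It made up 1.18%, 1.29% and 0.750% of summed UMIs in WT males and 2.09%, 2.16% and 2.79% in THY-Tau22 males, a difference of 1.28 percentage points with p = 0.1 (exact permutation test, the smallest possible). Females showed 2.38%, 3.77% and 1.01% in WT and 1.43%, 1.14%, 1.87%, 2.43% and 1.47% in THY-Tau22, which overlapped (p = 0.339, exact permutation test). The difference between the sexes in the genotype effect was 1.99 points (p = 0.0205 over 1120 stratified assignments, permutation test, adjusted p = 0.103 over 5 quality measures). Microglia of the same libraries showed the same order, with 0.417%, 0.572% and 0.371% in WT males and 0.963%, 0.866% and 1.17% in THY-Tau22 males, again without overlap, so the male order was also seen outside these neurons.

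Mitochondrial ribosomal RNA went the other way in males. It made up 30.1%, 18.8% and 19.5% of summed UMIs in WT males and 15.0%, 17.3% and 10.7% in THY-Tau22 males, with no overlap and p = 0.1 (exact permutation test). In females the values of 15.0%, 7.86% and 30.3% in WT and 20.3%, 20.4%, 13.5%, 10.3% and 22.6% in THY-Tau22 overlapped. In microglia the same rRNA was 15.0% to 19.7% in WT males and 7.39% to 13.1% in THY-Tau22 males. The summed glial background was 0.424%, 1.39% and 0.461% of member UMIs in WT females and 0.397%, 0.263%, 0.296%, 0.480% and 0.306% in THY-Tau22 females, which overlapped (p = 0.0536, exact permutation test), and it was highest in WT female replicate 2. Median UMIs and genes per member cell did not pass the test over both sexes (p = 0.622 and 0.373, permutation test stratified by sex).

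**Figure D3:**
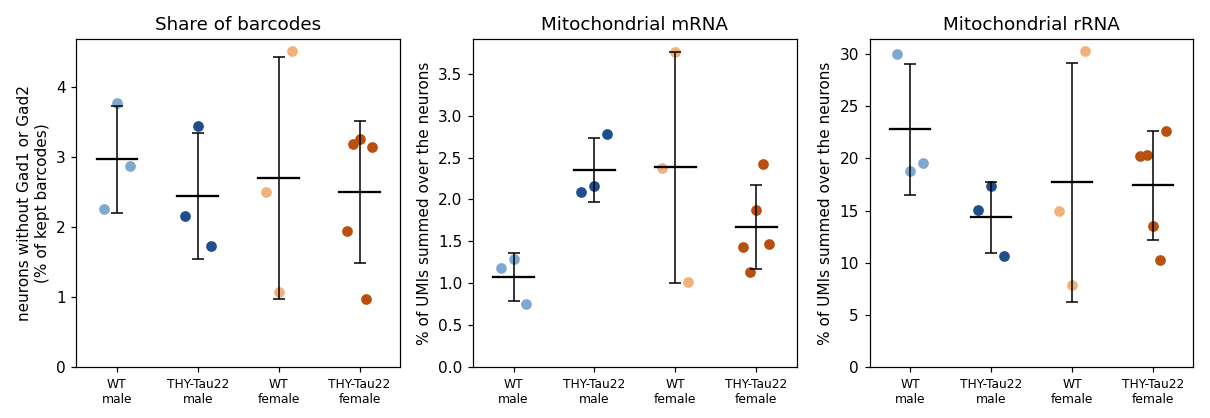
Points are mice and bars the mean ± SD of each group for the percentage of barcodes that were members, and for mitochondrial mRNA and mitochondrial rRNA as percentages of summed member UMIs (y axes). THY-Tau22 males lie between 2.09% and 2.79% of mitochondrial mRNA, above all WT males, while the female groups overlap.

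Gene by gene, few differences between genotypes passed the test. In males 0 of 1037 genes (0%) were called by edgeR's quasi-likelihood test, with 70 at an unadjusted p under 0.05 and 0 called by DESeq2. In females 1 gene (0.0964%) was called, with a lower level in THY-Tau22 mice, 33 genes at an unadjusted p under 0.05 and 1 called by DESeq2. That count fell to 0 among members with no glial or vascular UMI, and to 0 when the member cell with the most UMIs of the called gene was left out of each mouse, a check chosen after seeing the data. Over both sexes 0 genes (0%) were called, with 40 at an unadjusted p under 0.05 and 0 by DESeq2. In simulated data of the male design with 1063 genes, 76.5% of 200 genes changed by 2 on the log2 scale were recovered. The simulation gave all genes the same spread, and unchanged genes the same expected share in every mouse. Recovery in the real data may therefore be lower.

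In males the smallest p-values belonged to genes of mitochondrial energy production and to Itm2b, a membrane protein that interacts with the amyloid precursor. mt-Co1, a complex IV subunit, measured 383, 752 and 461 CPM in WT males and 1423, 1339 and 1109 CPM in THY-Tau22 males. The groups did not overlap and the log2 fold change was 1.32 ± 0.35, but the edgeR adjusted p was 0.215. mt-Cytb, a complex III subunit, measured 1755, 1667 and 922 CPM in WT and 3649, 3066 and 5495 CPM in THY-Tau22 males (1.48 ± 0.42, edgeR adjusted p = 0.223). Itm2b measured 39.6, 221 and 48.5 CPM in WT and 365, 317 and 555 CPM in THY-Tau22 males (1.97 ± 0.52, edgeR adjusted p = 0.215), and was called, as the only gene in males, when WT male replicate 2 was left out. Microglial genes summed to 79.2 to 267 CPM in members of WT males and 365 to 655 CPM in those of THY-Tau22 males, without overlap, and their part in these values was not tested. Atp5f1, a subunit of ATP synthase, was at 2.18 ± 0.61 and mt-Nd4, of complex I, at 1.30 ± 0.39 (edgeR adjusted p = 0.223 and 0.295).

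Among female values that were not called, the smallest p-values belonged to A830036E02Rik (−1.42 ± 0.45), the actin-binding Tmsb10 (2.54 ± 0.91), the neurofilament gene Nefm (1.09 ± 0.41) and Gm44562 (−1.36 ± 0.52), all with an edgeR adjusted p of 0.997. Nefm measured 212, 199 and 270 CPM in WT females and 403, 986, 522, 1264 and 331 CPM in THY-Tau22 females. The neurofilament values did not overlap, but did not pass the test. Over both sexes small p-values without a call were those of Oxct1, a mitochondrial enzyme of ketone body use (1.15 ± 0.35, edgeR adjusted p = 0.651), Atp5f1 (1.37 ± 0.42, edgeR adjusted p = 0.651), and Pcsk1n and Hnrnpa2b1 (1.31 ± 0.50 and 0.77 ± 0.29, edgeR adjusted p = 0.998).

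The sex difference itself was tested as an interaction. It called 1 of 1037 genes (0.0964%), with 64 at an unadjusted p under 0.05 and 7 by DESeq2. No gene was called when WT male replicate 4, THY-Tau22 male replicate 3 or WT female replicate 2 was left out. The next genes were mt-Cytb (2.04 ± 0.56), A830036E02Rik (2.44 ± 0.68), the ferritin chain Fth1 (2.24 ± 0.62) and mt-Co1 (1.66 ± 0.47), each with an edgeR adjusted p of 0.177. DESeq2 called mt-Cytb (2.06, adjusted p = 0.0300), Fth1 (2.42, adjusted p = 0.0392) and mt-Co1 (1.68, adjusted p = 0.0300), along with mt-Nd1, mt-Nd2 and mt-Nd5. Without WT female replicate 3, edgeR called 7 genes, mt-Cytb and Fth1 among them, and without THY-Tau22 male replicate 2 it called 2, Fth1 among them.

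The mouse tau gene Mapt and the endogenous Thy1 gene were read separately, since the transgene is a human tau sequence under a Thy1 promoter. The table lists no human tau gene, so these values do not check the genotype. Mapt, detected in 30.5% of members, measured 436, 605 and 315 CPM in WT males, 292, 282 and 504 CPM in THY-Tau22 males, 273, 298 and 400 CPM in WT females and 653, 372, 573, 759 and 438 CPM in THY-Tau22 females. The groups overlapped in both sexes, and the log2 fold change over both was 0.06 ± 0.27 (edgeR adjusted p = 0.998). Thy1, detected in 12.1% of members, measured 132, 88.5 and 48.5 CPM in WT males and 73.0, 88.1 and 504 CPM in THY-Tau22 males. It measured 182, 199 and 112 CPM in WT females and 250, 197, 356, 379 and 185 CPM in THY-Tau22 females. Its log2 fold change over both sexes was 0.94 ± 0.39 (edgeR adjusted p = 0.998), and the male value of 1.21 ± 0.58 turned to −0.22 without THY-Tau22 male replicate 3.

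By gene list, mitochondrial mRNAs had the widest separation between the sexes. All 6 tested of 13 had positive male values with a median log2 fold change of 1.24, and all 6 had an unadjusted p under 0.05, but 0 were called. In females 0 of 6 were positive, with a median of −0.55. Over all 1037 genes, 54.4% were positive with a median of 0.05 in males, and 52.7% with a median of 0.02 in females. The nuclear-encoded respiratory genes were positive in 11 of 11 in males (median 0.91, 0 called) and 10 of 11 in females (median 0.53, 0 called), with Cox8a at 1.48 ± 0.57 in males and 0.64 ± 0.59 in females. Their male median turned to −0.24 without THY-Tau22 male replicate 3, and their female median to −0.06 without WT female replicate 3.

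Stress and cytoskeletal lists had medians of opposite sign in the sexes, and none of their genes was called. Chaperones were positive in 2 of 10 in males (median −0.25) and 10 of 10 in females (median 0.34). Among them Hsp90b1, the chaperone of the endoplasmic reticulum, was at −0.99 ± 0.35 in males and 0.35 ± 0.32 in females, and the cytosolic Hsp90aa1 at −0.25 ± 0.36 and 0.33 ± 0.34. Microtubule genes were positive in 3 of 9 in males (median −0.25) and 7 of 9 in females (median 0.27), with Map1b at −0.63 ± 0.36 and 0.10 ± 0.33 and Map1a at −0.34 ± 0.34 and 0.37 ± 0.32. Others had the same sign in both sexes, as Map2 at −0.25 ± 0.33 and −0.23 ± 0.31 and Stmn2 at 0.48 ± 0.39 and 0.42 ± 0.39. Tuba1a went the reverse way, at 1.31 ± 0.64 in males and −0.26 ± 0.58 in females. Amyloid-related genes (App, Aplp1, Aplp2, Itm2b and Itm2c) had medians of −0.03 and 0.16, with Aplp2 at −1.06 ± 0.40 in males and 0.22 ± 0.36 in females. Tau kinase and phosphatase genes, of which 3 were tested (Cdk5r1, Gsk3b and Ppp2ca), had medians of 0.29 and 0.44.

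Synaptic genes lay close to the median of all genes. Presynaptic genes were positive in 10 of 14 in males (median 0.12) and 12 of 14 in females (median 0.22), although the male median was −0.20 with the filter of at least 10 UMIs, which itself moved the male median of all genes by −0.30. Glutamate receptor genes had medians of 0.18 and 0.08, GABA receptor genes 0.16 and 0.17, voltage-gated channel genes 0.06 and −0.10, and calcium-signalling genes 0.10 and 0.15. Ion pump genes had 0.11 and 0.06, and secretory granule genes 0.26 and 0.15. None of these genes was called in either sex.

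Excitatory and activity genes were likewise not called. The 6 tested excitatory genes had a median of 0.28 in males and −0.40 in females, with Camk2a at 0.48 ± 0.35 and −0.66 ± 0.33, Arpp21, a cyclic AMP-regulated phosphoprotein, at 0.51 ± 0.33 and −0.30 ± 0.30, and Neurod6 at −0.57 ± 0.58 and −0.44 ± 0.53. Immediate early genes, which neuronal activity and dissociation both induce, had a median of 0.59 in males and −0.23 in females, with Fos at 1.25 ± 0.54 and −0.58 ± 0.46. Long non-coding RNAs had medians of 0.25 and −0.48, with Meg3 at 0.25 ± 0.48 and −0.61 ± 0.43 and Malat1 at 0.15 ± 0.57 and −0.48 ± 0.51. Of the 22 genes the study listed for neurons, a choice made on these samples and so no independent evidence, 18 were tested, 12 were positive in males and 6 in females, and 1 was called, in females.

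**Figure D4:**
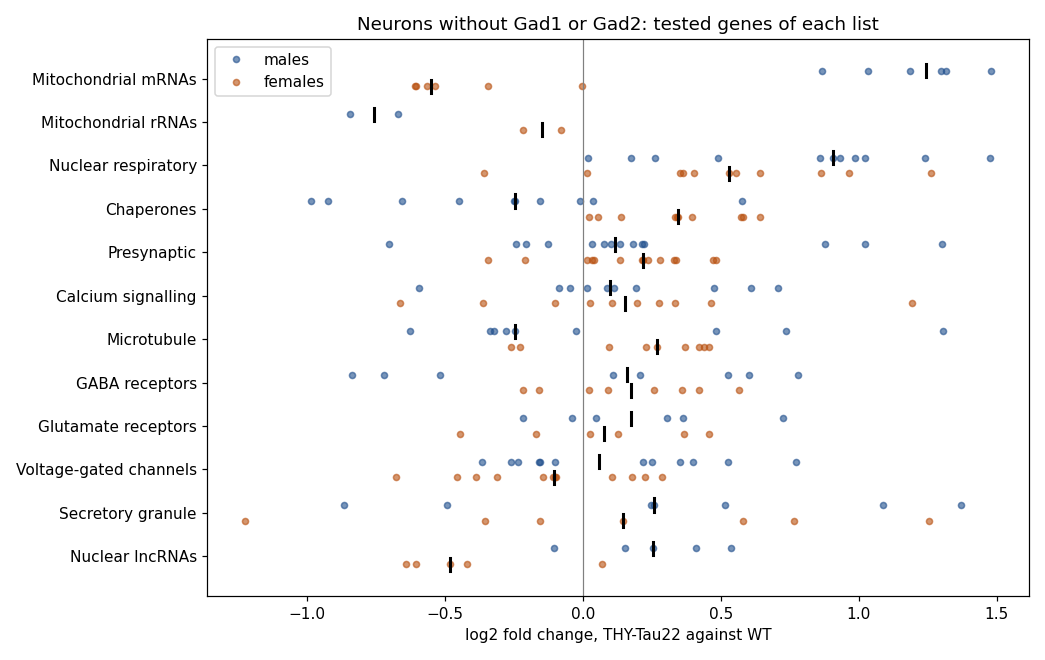
Each point is the log2 fold change (THY-Tau22 against WT, x axis) of a tested gene of 12 lists, with males and females drawn separately and a black tick at the list's median. The 6 mitochondrial mRNAs lie at or above 0.87 in males and at or below 0 in females, whereas the synaptic lists centre near 0 in both sexes.

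The make-up of the member cells was compared by the share carrying each marker list. Excitatory genes were in 80.7%, 89.7% and 92.7% of members in WT males and 82.9%, 82.4% and 75.0% in THY-Tau22 males, and in 85.7%, 91.7% and 78.5% in WT females and 78.9%, 84.1%, 77.3%, 57.1% and 82.1% in THY-Tau22 females. Over both sexes the share was lower in THY-Tau22 mice by −8.51 percentage points, which missed the threshold (p = 0.0536, permutation test stratified by sex, adjusted p = 0.300 over 7 lists), and by −5.03 points after thinning (p = 0.403). Deep-layer genes were in 25.7%, 8.33% and 23.4% of members in WT females and 39.5%, 36.4%, 43.9%, 28.6% and 34.3% in THY-Tau22 females. These groups did not overlap, a difference of 17.4 points at the smallest p possible (p = 0.0179, exact permutation test, adjusted p = 0.125), and 22.6 points after thinning, where WT female replicate 2 kept 7 cells and THY-Tau22 female replicate 4 kept 6. In males the shares were 29.8%, 27.9% and 29.3% in WT and 20.0%, 16.2% and 33.3% in THY-Tau22, which overlapped (p = 0.4, exact permutation test). The female difference was 12.7 points among members with no glial or vascular UMI (p = 0.107, exact permutation test), and missed the threshold without WT female replicate 2 (12.0 points, p = 0.0952, exact permutation test) or without THY-Tau22 female replicate 1, 2 or 5. Bcl11b, of the deep-layer list, was at −0.79 ± 0.63 in males and 0.72 ± 0.55 in females and was not called.

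Of the other lists, striatal genes differed by −0.37 points over both sexes (p = 0.952), inhibitory genes by 2.66 (p = 0.615), upper-layer genes by 7.06 (p = 0.345), immature-neuron genes by 4.03 (p = 0.445) and Cajal-Retzius genes by 2.68 (p = 0.0857, all permutation tests stratified by sex). Gad-negative cells made up a mean of 82.4% of all neurons in WT males, 85.7% in THY-Tau22 males, 89.7% in WT females and 76.3% in THY-Tau22 females, and the female difference missed the threshold (p = 0.0714, exact permutation test).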

How the data were processed

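The deposited tables hold UMI counts per gene and barcode (whole numbers, not normalised), which the authors made from Drop-seq reads aligned to mouse build mm10, named in the submitters' processing notes, with 3000 barcodes and 30389 genes per table. From these, member cells were chosen by the rule above. Members and gene lists were chosen with earlier results of these data known. Counts were summed per mouse and tested with edgeR 4.0.16 in R 4.3.3 (TMM, filterByExpr, quasi-likelihood, 1 mean per group, Benjamini-Hochberg over all genes tested), leaving the 18 rule genes in library sizes but out of the tests. Per-mouse shares were compared by exact permutation tests. Each library is labelled as 1 mouse, and p-values measure the spread between these mice. Counting intervals and limits cover counting error only. Calls needed an adjusted p below 0.05 and a log2 fold change of 0.5 or more either way. Scrublet marked 1287 barcodes (5.24%) as doublets, 26 of them members, but only 1 of 1393 in THY-Tau22 male replicate 3, where it did not work. Marked barcodes were kept and left out as an alternative. Named genes were Mapt and Thy1, the called genes with the smallest p, or else the 5 with the smallest p, up to 4 abundant members per list, and the study's 22 neuron genes. Other gene markers were named after their values were seen. Alternatives were DESeq2 1.42.0, its size factors, a filter of at least 10 UMIs, at most 5% mitochondrial mRNA UMIs, at least 5 neuron UMIs, no glial UMI, and leaving out libraries. The 5% limit did not count mitochondrial rRNA, which still made up 30.1% of member UMIs in WT male replicate 1 under it. Fits were tested on simulated data. Some called genes are counted but not reported here.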

Additional observations from a re-analysis of the deposited data

Results flagged for a closer look

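THY-Tau22 female replicate 4, with 14 member cells, stood far from the other 4 THY-Tau22 females in 5 values. It had excitatory genes in 57.1% of members, inhibitory genes in 35.7% (50.0% after thinning, over 6 cells), 1517 CPM of Hnrnpa2b1 and 506 CPM of Pcsk1n. Blood genes summed to 759 CPM in its members, against a median of 12.7 CPM over THY-Tau22 females. Of 38 groups examined in this way 5 stood out, and chance marks about 1 in 20 groups. All 5 came from this mouse, and the inhibitory share counted both before and after thinning. They are not independent, so the count cannot be set against that rate.

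The genotype effect differed between the sexes in 4 values, each given as male minus female. It was 1.99 percentage points for mitochondrial mRNA (permutation p = 0.0205, adjusted p = 0.103) and 0.573 points for the summed glial background (permutation p = 0.042, adjusted p = 0.105). For the share of members with deep-layer genes it was −23.2 points (permutation p = 0.0116, adjusted p = 0.0813), and −28.4 after thinning (permutation p = 0.00893, adjusted p = 0.0625). None of these 4 passed after adjustment.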

How the results depend on the processing

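Leaving out 1 library at a time gave 0 to 1 called genes in males (1, Itm2b, without WT male replicate 2), 1 to 1 in females, 0 to 1 over both sexes (1 without THY-Tau22 male replicate 3 or WT female replicate 1), 0 to 7 in the interaction (0 without WT male replicate 4, THY-Tau22 male replicate 3 or WT female replicate 2, and 7 without WT female replicate 3) and 16 to 29 between members and Gad-positive neurons (16 without WT male replicate 1). Females had 0 calls among members with no glial UMI and 0 without the member cell with the most UMIs of the called gene in each mouse. The interaction had 7 with DESeq2, 0 with the filter of at least 10 UMIs, 0 with at most 5% mitochondrial mRNA UMIs, 0 with at least 5 neuron UMIs, 4 with no glial UMI, 8 without the MB22 libraries and 0 without the 2 libraries with under 20 members, the last chosen after seeing the data. Members against Gad-positive neurons gave 13 with DESeq2, 185 with the 10-UMI filter and 13 with no glial UMI. That filter moved the median log2 fold change of all genes by −0.30 in males, 0.11 in females, −0.42 in the interaction and 0.54 between classes. The log2 fold change of Mapt over both sexes was −0.052 with that filter, −0.012 with at least 5 neuron UMIs, −0.016 without the 2 small libraries and −0.13 to 0.29 leaving out 1 library, and Thy1 in males ranged from −0.22 to 1.64. The member share of barcodes over both sexes was 0.0121 points without MB22 and −0.768 to 0.0918 leaving out 1 library (positive without WT female replicate 3), and mitochondrial mRNA −0.0393 and −0.0641 to 0.625 (negative without WT female replicate 3). The excitatory share reached p under 0.05, not adjusted over the 7 lists, in some settings. These were at most 5% mitochondrial mRNA UMIs (−9.96 points, permutation p = 0.042) and no MB22 libraries (−11.0, permutation p = 0.0367). Leaving out WT male replicate 1, THY-Tau22 female replicate 2 or 5 or WT female replicate 3 did so too, and leaving out 1 library gave −10.3 to −6.16 points. With all 16 libraries as labelled, male mitochondrial mRNA differed by 0.979 points (permutation p = 0.0286). That p-value is no valid test, because the setting counts the excluded pair, sharing nearly all barcodes, as separate mice of opposite genotype. The cause of the changes between settings was not tested. With 12 to 107 members per mouse, small differences were not detectable at this depth. Members and Gad-positive neurons were paired within mice, with the mouse as a block. No paired analysis was possible because, in the genotype comparisons, replicate numbers follow accession order only.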
